A study of Homo sapiens with 12 samples.

Results

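The hairpin vector was compared with the tRNA vector in 293T cells, on 4 arrays against 4, which are 8 of the 12 arrays of the study. The arrays were chosen by their sample titles and not by any measured value. The tRNA vector carries the human tRNA gene chr1.tRNA68-Gly(GCC), and the labels describe this tRNA as cut in the cell to release the small RNA CU1276. The hairpin vector carries an artificial hairpin made to give the same small RNA. The remaining group, with an empty vector on 4 arrays, shares the cells and the handling and is used here only as a point of reference. 293T is a human embryonic kidney line that carries the large T antigen of SV40, a viral protein that binds p53 and RB. All groups were transfected transiently with polyethylenimine and collected 48 hours later, without selection for transfected cells by the protocols given, and 12 micrograms of total RNA per sample were labelled. The comparison asks how 2 sources of 1 small RNA, a whole tRNA gene and a short hairpin, differ in the transcripts of the cell. Arrays of the 3 groups are called empty, tRNA and hairpin arrays. The level of CU1276 itself, of the tRNA and of the hairpin was not analysed here.

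A tRNA gene is transcribed by RNA polymerase III, and its transcript is trimmed at both ends, modified and charged with its amino acid before it serves in translation. Fragments of tRNAs can be cut out by Dicer or by other nucleases. A hairpin made to resemble a microRNA precursor is carried out of the nucleus by exportin 5, cut by Dicer and loaded onto Argonaute proteins, which repress mRNAs that pair with bases 2 to 8 of the small RNA, its seed. In natural microRNA genes the first cut is made by the Microprocessor, which consists of the nuclease DROSHA and its RNA-binding partner DGCR8. DROSHA and DGCR8 also cut hairpins within the DGCR8 mRNA, and so hold its level down.

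The values are MAS5 signals, linear intensities per probe set that were scaled to a common mean on each array. The groups were labelled as biological replicates, and their source in separate cultures is not described further, so p-values measure the spread between these samples. Median signals were 82.6 to 100.5 on the tRNA arrays and 75.9 to 104 on the hairpin arrays. Across probe sets, which are not independent of each other, arrays of 1 group correlated at r = 0.930 to 0.959 and arrays of the 2 groups at 0.925 to 0.958. GAPDH probe sets at the 3' end gave a signal that, over the one at the 5' end, was higher by a factor of 1.25 to 1.52 on the tRNA arrays and 1.20 to 1.67 on the hairpin arrays (exact permutation p = 0.914, two-sided). Bacillus control RNAs, which are added in labelling, stood at 3 levels, shared by the vectors: 1135 and 1109 on the arrays numbered 1, 216 and 259.7 on those numbered 2, and 12.3 to 16.1 on those numbered 3 and 4. Of 20 genes that mark 293T cells and are on the array, 18 were above the filter on dim signals, among them the intermediate filament VIM, the neuronal genes UCHL1 and NEFM, and LIN28B; LHX1 and STMN2 were below it. The summed signal of the 20 was 52858 to 57339 on the tRNA arrays and 51045 to 54315 on the hairpin arrays. Above the filter were 6 of 13 B cell markers, 6 of 18 of T and myeloid cells, 5 of 12 of epithelia, 4 of 6 of erythroid cells and 9 of 12 of fibroblasts. The summed signals of the first 4 lists were 229 to 1224 over both vectors, and of the fibroblast markers 1690 to 1719 on the tRNA arrays and 1719 to 1925 on the hairpin arrays.

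Few transcripts separated the vectors. Of 32768 tested probe sets, 0 (0%) passed the limma test at an adjusted p under 0.05 (smallest 0.236), while 1271 had an unadjusted p under 0.05. Of these, 754 (2.30%) were higher and 517 (1.58%) lower with the hairpin vector. This excess of higher probe sets was not kept without hairpin vector replicate 2, where 645 were higher and 665 lower. In 480 probe sets (1.46%) all 4 hairpin arrays lay above all 4 tRNA arrays, and in 382 (1.17%) all lay below. Random labels would separate 4 arrays from 4, in either direction, at a rate of 0.0286. These shares do not by themselves show a difference. The labels state no pairing of the arrays. Deviations from group means correlated at 0.113 to 0.356 for the same replicate number and at -0.205 to 0.103 for other numbers. Numbers 3 and 4 were hardly told apart. With the replicate number as a block in the limma fit 6 probe sets (0.0183%) passed, 4 higher and 2 lower. With the 3 levels of the control RNAs as the block 8 passed (0.0244%), which include the 6. Without the 3 arrays numbered 1, and with no block, 1 passed. For the median probe set the 95% confidence interval of the log2 difference reached 0.48 to either side. That half-width was 1.20 in the dimmest 8192 probe sets, 0.60 and 0.35 in the next groups of that size and 0.23 in the brightest. Differences over 1 on the log2 scale numbered 485 higher and 409 lower, and 845 of them lay in the dimmest of these 4 groups and 0 in the 2 brightest. Most of these large differences came with overlapping groups: 132 of them had groups that did not overlap.

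**Figure D1:**
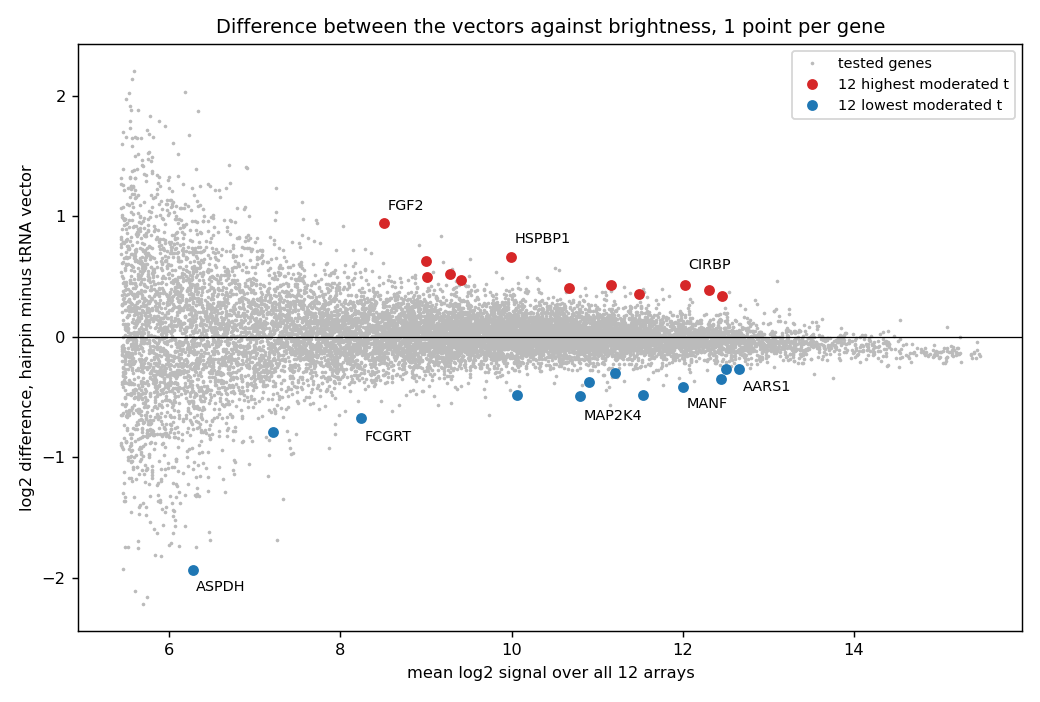
Log2 difference between the vectors (vertical axis, hairpin minus tRNA vector) against the mean log2 signal over all 12 arrays (horizontal axis), 1 grey point per tested gene, with the 12 genes of highest and the 12 of lowest moderated t in colour. The spread of the grey points narrows with brightness, and most of the 24 coloured genes stand at its edges above a log2 signal of 9.

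The transcript of DGCR8 stood higher with the hairpin vector. DGCR8 was already known from earlier results of these data, so its p-values are no independent support. Its probe sets are annotated to DGCR8 together with MIR1306, a microRNA gene that lies within it, and they measure the host transcript and not the mature microRNA. The 2 arms of that microRNA are shown because its gene and DGCR8 are read by the same probes. They come from RefSeq (GRCh38.p14, chromosome 22, plus strand, chr22:20086072-20086093 and chr22:20086112-20086129), and capitals mark the seed, bases 2 to 8, which the 2 arms do not share.
hsa-miR-1306-5p: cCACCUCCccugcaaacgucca
hsa-miR-1306-3p: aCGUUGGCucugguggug
The brightest of the 4 probe sets gave signals of 1404, 1350, 1392 and 1550 on the tRNA arrays and 2402, 2107, 1951 and 2436 on the hairpin arrays, in the order of replicates 1 to 4. Every hairpin array lay above every tRNA array, by 1.56-fold in the mean of the logs. The log2 difference was 0.64 ± 0.10 (limma SE, n = 4 per group, 95% confidence interval 0.42 to 0.86). It had a limma adjusted p of 0.236, of 0.0442 with the replicate block and of 0.0275 with the control RNA block, and an exact permutation p of 0.0286, the smallest that 4 against 4 can give. The empty vector arrays, at 1389 ± 138 (SD, n = 4), were close to the tRNA vector arrays, at 1424 ± 86.9.

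The next probe set of DGCR8 gave 933, 1240, 1176 and 1292 on the tRNA arrays and 1265, 1549, 1738 and 1768 on the hairpin arrays. Here the groups overlapped by 1 array on each side, and the log2 difference was 0.44 ± 0.15 (exact permutation p = 0.0571). The one after it gave 627, 577, 566 and 552 against 771, 735, 941 and 989, again with no overlap, and a log2 difference of 0.55 ± 0.14 (exact permutation p = 0.0286). Neither passed the limma test, with or without a block (adjusted p with the replicate block 0.153 and 0.227). The last, dim probe set ranged from 15.9 to 105 on the tRNA arrays and from 23.6 to 192 on the hairpin arrays, which leaves its log2 difference, 0.79 ± 0.80, without a settled sign.

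Among the transcripts lower with the hairpin vector, MANF and MAP2K4 stood out. Both were already known from earlier results of these data to stand far from the empty vector. Their p-values are therefore no independent support. MANF is a secreted protein of the endoplasmic reticulum that is induced when proteins misfold there. Its signals were 4947, 4717, 4540 and 4287 on the tRNA arrays and 3495, 3433, 3440 and 3480 on the hairpin arrays. The 4 hairpin arrays agreed within an SD of 30.2 and lay below every tRNA array, a 1.33-fold difference. The log2 difference was -0.42 ± 0.067, with a limma adjusted p of 0.236, or 0.0442 with the replicate block and 0.0275 with the control RNA block. With the empty vector MANF stood at 4326 ± 112, between the 2 vectors and nearer to the tRNA vector.

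MAP2K4 is a kinase that activates JNK, a stress-responsive kinase. Its signals were 2051, 1926, 1898 and 2118 on the tRNA arrays and 1557, 1464, 1311 and 1346 on the hairpin arrays, with no overlap. The log2 difference was -0.50 ± 0.086, a 1.41-fold lower signal with the hairpin vector, and the limma adjusted p was 0.363, or 0.0442 with the replicate block. Its other tested probe set pointed the same way, at 1269 and 912 in the group means and a log2 difference of -0.44 ± 0.19. The empty vector mean of the first probe set, 1989 ± 106, was that of the tRNA vector within the spread of the arrays.

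CIRBP and IFNGR1 were the other named genes that passed with the replicate block, both higher with the hairpin vector. For CIRBP, also known from earlier results of these data, the p-values are no independent support. CIRBP, an RNA-binding protein induced by mild cold, gave 3602, 3026, 3465 and 3676 on the tRNA arrays and 4403, 4634, 4718 and 4747 on the hairpin arrays. No array of one group reached the other, and the log2 difference was 0.43 ± 0.080 (1.35-fold, limma adjusted p = 0.530, 0.0442 with the replicate block). Its 4 other tested probe sets did not share this, with log2 differences of 0.050 ± 0.15, -0.0016 ± 0.12, -0.31 ± 0.28 and 0.12 ± 0.21 in order of falling brightness. IFNGR1, a chain of the interferon gamma receptor, gave 3464, 2713, 2781 and 2763 against 4414, 3646, 3638 and 3715. The array numbered 1 was the highest of its group with both vectors, and the hairpin array exceeded the tRNA array in each of the 4 same-number pairs. The log2 difference of IFNGR1 was 0.40 ± 0.11 (limma adjusted p = 0.9997, 0.0442 with the replicate block). A second probe set of IFNGR1 differed by 0.050 ± 0.15.

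The remaining call of the replicate block was a probe set that the array's annotation does not pair with a gene. It gave 696, 737, 816 and 793 on the tRNA arrays and 1147, 1433, 1496 and 1405 on the hairpin arrays, a log2 difference of 0.85 ± 0.13 (1.80-fold). This was the smallest p of the whole table (limma adjusted p = 0.236 with no block, 0.00231 with the replicate block), and in the fit with no block and without the arrays numbered 1 it was the 1 call, at an adjusted p of 0.0233. With the empty vector it stood at 1186 ± 191. The control RNA block added PPP2R5C, a regulatory subunit of the phosphatase PP2A, and SEC61A2, a form of the pore protein of the endoplasmic reticulum translocon, both at a limma adjusted p of 0.0315 in that fit. In each case the call came from a probe set that is not the brightest of its gene. For PPP2R5C it gave 1788 ± 261 and 2582 ± 503 (log2 difference 0.52 ± 0.14), while the brightest differed by 0.0100 ± 0.099. For SEC61A2 it gave 552 ± 75.2 and 880 ± 121 (0.67 ± 0.13), while the brightest differed by -0.078 ± 0.12.

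**Figure D2:**
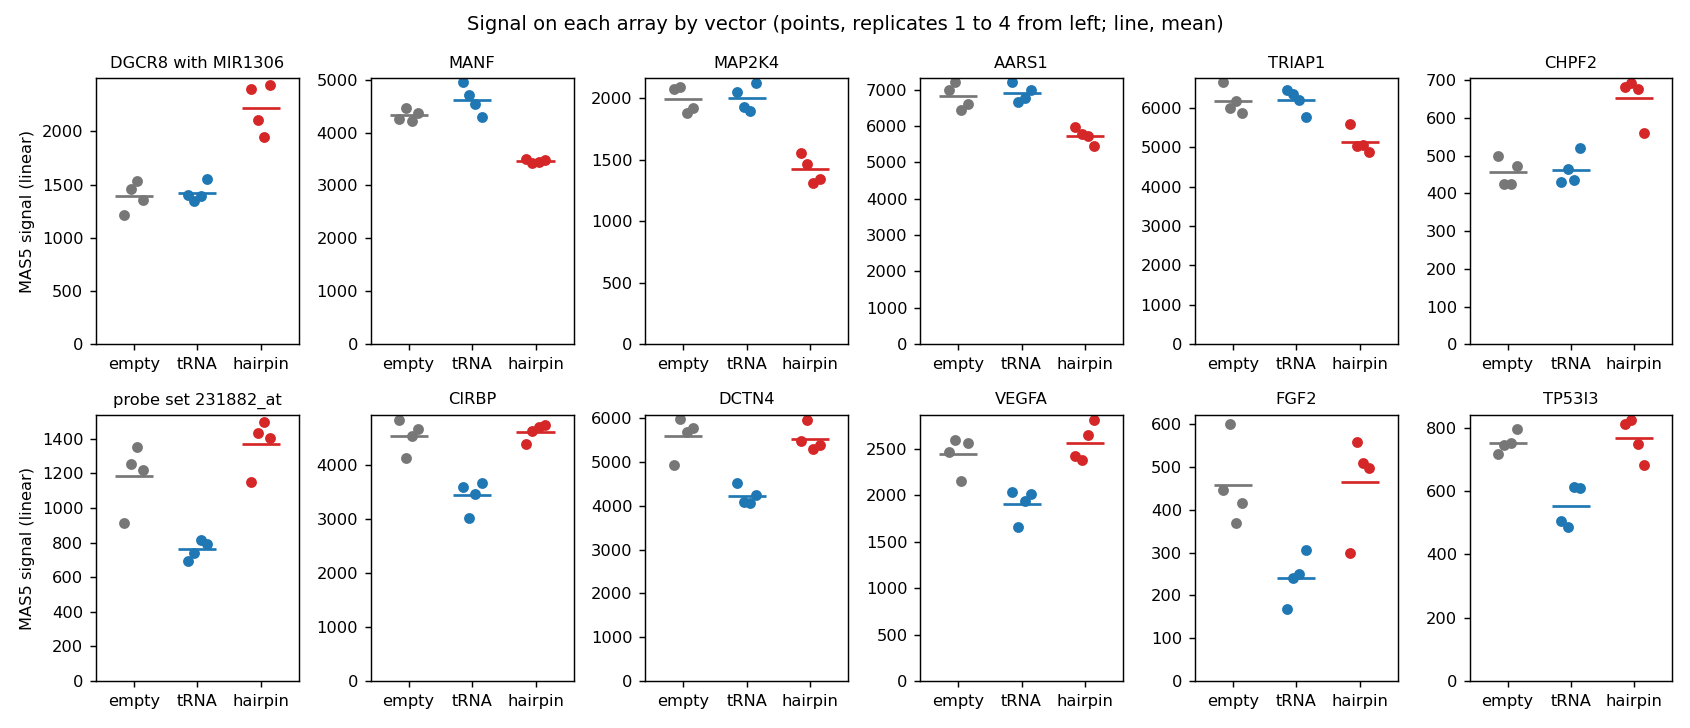
MAS5 signal (vertical axes, linear, from 0) on each of the 4 arrays of the empty, tRNA and hairpin vectors for 12 probe sets; points are replicates 1 to 4 from the left and lines are group means. In the upper row the hairpin arrays stand apart from arrays of both other groups, with the smallest gaps in TRIAP1 and CHPF2, and in the lower row the tRNA arrays have the lowest mean, with 1 hairpin array of FGF2 among them.

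By the size of the moderated t, the 12 genes highest with the hairpin vector were CIRBP, DCTN4, VEGFA, C8orf33, HSPBP1, KLHL2, TP53I3, FGF2, H2AC6, COPS9, CHPF2 and SERTAD2. Since the ranking uses the contrast itself, their separation is a description: 11 of the 12 had groups that did not overlap, beside 1.66% of all genes in that direction, and folds ran from 1.26 to 1.92. DCTN4, a subunit of dynactin, which links cargo to the dynein motor, gave 4525, 4085, 4071 and 4253 against 5475, 5956, 5299 and 5382. VEGFA, the secreted growth factor of blood vessels, gave 2036, 1662, 1937 and 2014 against 2426, 2381, 2652 and 2808. These 2 genes have several tested probe sets, and 1 of 5 others pointed the same way. HSPBP1, a nucleotide exchange factor for HSP70, gave 710, 791, 778 and 923 against 1025, 1463, 1180 and 1416, with a log2 difference of 0.66 ± 0.15.

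FGF2, a growth factor of the fibroblast growth factor family, had the largest fold of the 12, with signals of 168, 241, 250 and 306 against 299, 559, 509 and 499. The lowest hairpin array fell among the tRNA arrays, and a second probe set differed by 0.10 ± 0.21 against 0.94 ± 0.23 for the first. KLHL2, an adaptor of a cullin ubiquitin ligase, gave 559, 517, 466 and 501 against 641, 670, 841 and 797. H2AC6, a histone H2A gene, gave 456, 346, 392 and 373 against 705, 513, 541 and 675. COPS9, a small subunit of the COP9 signalosome, differed by 0.34 ± 0.083 and CHPF2, an enzyme of chondroitin synthesis, by 0.50 ± 0.12. Over the 12 genes, 5 of 13 other tested probe sets shared the direction.

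The 12 lowest genes were MANF, MAP2K4, SPINT2, ASPDH, AARS1, METTL9, THOC5, TBL1X, MYC, TRIAP1, CXCL16 and FCGRT. All 12 had groups that did not overlap, beside 1.58% of all genes in that direction, with the hairpin vector 1.21 to 1.73-fold lower in the 11 other than ASPDH, and 3 of 7 other tested probe sets shared the direction. AARS1, the enzyme that charges alanine tRNA, gave 7220, 6652, 6783 and 7001 on the tRNA arrays and 5975, 5790, 5736 and 5450 on the hairpin arrays. MYC, a transcription factor of cell growth, gave 5930, 6355, 6689 and 5997 against 4086, 4836, 5251 and 5543, a log2 difference of -0.35 ± 0.092. SPINT2, an inhibitor of serine proteases, gave 1232, 1096, 1365 and 1333 against 933, 917, 836 and 910.

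METTL9, a histidine methyltransferase, differed by -0.48 ± 0.12, and THOC5, a subunit of an mRNA export complex, by -0.30 ± 0.074. CXCL16, a chemokine, gave 197, 218, 186 and 190 against 139, 99.9, 106 and 114. FCGRT, the receptor that protects IgG from breakdown, gave 361, 427, 362 and 457 against 286, 226, 246 and 248. The largest difference, that of ASPDH, rested on dim signals: 140, 194, 162 and 93.4 against 43.4, 39.2, 25.2 and 45.2, where the filter stands at a geometric mean of 43.3, so no fold is given. Of these 24 genes, CIRBP, MANF and MAP2K4 passed the limma test with the replicate block, and the other 21 did not pass in any fit at a full set of arrays (adjusted p with the replicate block up to 0.374).

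Levels with the empty vector are set beside these, and the comparisons share arrays with the ranking and each other, so they give no further support. DCTN4 stood at -0.40 ± 0.078 on the tRNA arrays and -0.016 ± 0.078 on the hairpin arrays, each as a log2 difference from the empty vector. For FGF2 these were -0.94 ± 0.23 and 0.0083 ± 0.23, and for H2AC6 -0.55 ± 0.15 and 0.079 ± 0.15. CHPF2 had the other arrangement, with 0.021 ± 0.12 for the former and 0.52 ± 0.12 for the latter. Among the lower genes, AARS1 stood at 0.021 ± 0.066 and -0.25 ± 0.066, TRIAP1 at 0.0042 ± 0.072 and -0.27 ± 0.072, and METTL9 at 0.088 ± 0.12 and -0.39 ± 0.12. TBL1X, part of a corepressor complex, was the reverse, at 0.43 ± 0.094 on the tRNA arrays and 0.060 ± 0.094 on the hairpin arrays.

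**Figure D3:**
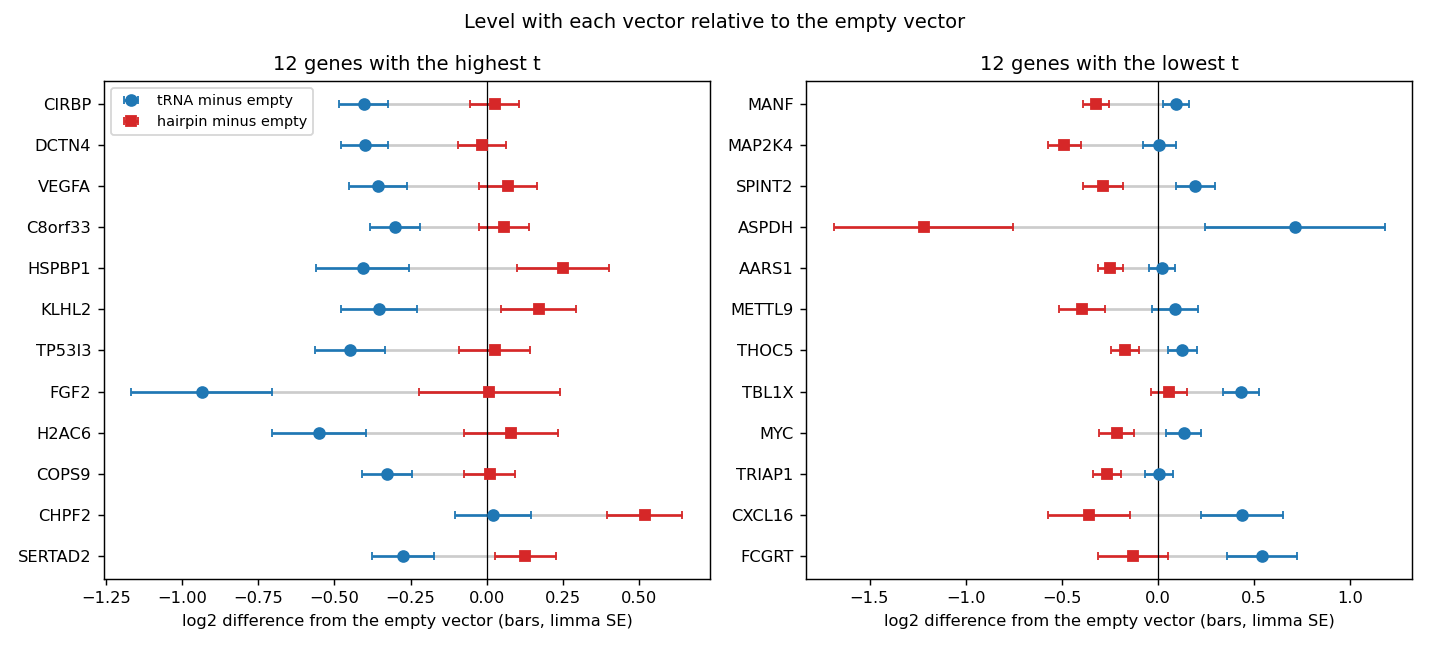
Log2 difference from the empty vector (horizontal axis) for the tRNA vector (circles) and the hairpin vector (squares), with limma SEs, for the 12 genes of highest moderated t between the vectors (left) and the 12 of lowest (right). In the left panel the tRNA vector stands to the left of 0 for all genes but CHPF2, and in the right panel the hairpin vector stands to the left of 0 for all genes but TBL1X; both differences share the empty vector arrays and the ranking used the tRNA and hairpin arrays.

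Several genes already known from these data to stand far from the empty vector are given as values, with no test. They were chosen on the same arrays, so their differences between the vectors are no independent support. CAMSAP2, which binds microtubule minus ends, gave 1509, 1738, 1765 and 2056 on the tRNA arrays and 2492, 2193, 2172 and 2265 on the hairpin arrays. Its log2 difference was 0.37 ± 0.096, and its 2 other tested probe sets differed by 0.16 ± 0.11 and 0.015 ± 0.11. LRRC58 gave 2923, 2738, 3118 and 3119 against 4016, 3558, 3596 and 3651, while its other tested probe set differed by -0.022 ± 0.23. RAB13, a GTPase of vesicle transport, had means of 2332 and 2818 with overlapping arrays. TSPAN31, a tetraspanin, gave 684, 833, 705 and 612 against 572, 398, 542 and 515, and CUTA gave 4586, 4704, 4840 and 4512 against 4059, 4047, 3681 and 4223.

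Of those chosen for the hairpin vector, STK24, a protein kinase, gave 5889, 5012, 5171 and 5158 on the tRNA arrays and 4614, 4421, 4235 and 4256 on the hairpin arrays. RC3H2, which promotes mRNA decay, gave 2893, 1861, 2415 and 2876 against 1419, 1334, 1948 and 2107, with overlap, and its 6 other tested probe sets differed by -0.14 to 0.19. PFAS, of purine synthesis, gave 2383, 2001, 2249 and 2045 against 3431, 3073, 2601 and 2270, and DNAJC11, a mitochondrial cochaperone, had means of 1501 and 1758. COPE, a coatomer subunit, had means of 2432 ± 499 and 2970 ± 481, and its log2 difference of 0.30 was 0.14 without tRNA vector replicate 1. TMEM59L was dim, at 18.8 to 90.1 on the tRNA arrays and 98.9 to 154 on the hairpin arrays. DTX2, which acts in Notch signalling, was dim too, at means of 142 and 66.4, and GHET1, a long noncoding RNA, stood at 157 to 179 and 84.7 to 158. DTX2 and GHET1 stood further from the empty vector on the tRNA arrays (log2 differences 2.70 and 1.09) than on the hairpin arrays (1.48 and 0.48).

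CUL4B, a scaffold of ubiquitin ligases, differed by -0.092 ± 0.10 in its brightest probe set and by 0.52 ± 0.15 in the next, at means of 1781 and 2599. ZNF654, a zinc finger gene, differed by 0.41 ± 0.16 and 0.52 ± 0.13 in its first 2 probe sets. Its remaining tested probe sets differed by -0.034 ± 0.55, 0.15 ± 0.25, 0.015 ± 0.40 and 0.38 ± 0.69. BEX1 had means of 873 ± 100.2 and 1170 ± 276, and CDH22, a cadherin, 157 ± 38.9 and 105 ± 12.7.

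RPA1, the large subunit of the complex that coats single-stranded DNA and the mRNA on which the study of CU1276 is known to centre, was measured by probe sets that did not give the same picture. The brightest gave 5061 ± 335 on the tRNA arrays and 5032 ± 461 on the hairpin arrays, and its log2 difference, -0.010 ± 0.082, has a 95% confidence interval of -0.18 to 0.16. The interval leaves room for a difference of either sign up to its bounds. The second probe set was lower in each same-number pair with the hairpin vector, at 4463 ± 594 and 3756 ± 400.2 (-0.24 ± 0.13, exact permutation p = 0.114). With the control RNA block its SE was 0.073, and the limma adjusted p was 0.386 with the replicate block and 0.401 with the control RNA block. RPA2 and RPA3, the smaller subunits, differed by -0.0090 ± 0.081 and -0.026 ± 0.089. The signs of the brightest RPA1 probe set, of RPA2 and of RPA3 turned with quantile normalization (0.017, 0.027 and 0.041).

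The machinery that handles hairpins and microRNAs differed little between the vectors apart from DGCR8, which is not counted in the lists since its probe sets have 2 symbols. Over all 13952 genes 50.6% had a higher mean with the hairpin vector and 49.4% a lower one, and the median log2 difference was 0.0028. Unadjusted p-values under 0.05 were found in 2.64% of genes higher and 1.92% lower, and 0% passed after adjustment, in the lists as in the whole. Of 18 measured genes of the Microprocessor, Dicer and small RNA export, 10 were higher and 8 lower (median 0.011), with 0 at an unadjusted limma p under 0.05. DROSHA stood at 2358 and 2503 in the group means (0.084 ± 0.11), DICER1 at 2900 and 3084 (0.086 ± 0.089), and XPO5, the exporter of precursor hairpins, at 2878 and 2692 (-0.10 ± 0.092). TUT7, which adds uridines to precursors, had the smallest p (578 and 694 in the means, 0.26 ± 0.12).

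Of 29 Argonaute and silencing genes 18 were higher and 11 lower (median 0.027). The Argonautes AGO1, AGO2, AGO3 and AGO4 differed by 0.056 ± 0.11, -0.061 ± 0.14, -0.078 ± 0.12 and 0.21 ± 0.13. MOV10, an RNA helicase that binds Argonautes, was at 631 ± 71.6 and 777 ± 22.0, with groups that did not overlap (0.31 ± 0.13). TNRC6A, the GW182 protein that recruits deadenylases, differed by 0.26 ± 0.12, both at an unadjusted limma p under 0.05. Of 21 microRNA host transcripts 13 were higher, with EVL, which hosts a microRNA gene, lower at 1818 ± 88.5 and 1564 ± 112.

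The genes that make and use tRNAs gave no shared direction at a level that passed. Of 35 genes of RNA polymerase III and its factors 18 were higher and 17 lower (median 0.0033, a sign that turned in 10 of 22 settings). The unadjusted p under 0.05 was reached by POLR2F, a subunit shared by the 3 nuclear polymerases, at 6494 ± 373 and 5075 ± 596 (-0.36 ± 0.10), and by POLR1D, shared by polymerases I and III (-0.22 ± 0.10). The 1 other tested probe set of POLR2F did not share its direction. With the replicate block 5 genes were lower and 2 higher at that threshold, beside 4.41% and 4.96% of all genes. Of the 50 genes of tRNA processing, modification and cleavage 20 were higher and 30 lower (median -0.029), and POP5, a subunit of RNase P and RNase MRP, which trim tRNA and rRNA precursors, had the smallest p (4402 ± 625 and 3465 ± 431). Of the 18 aminoacyl-tRNA synthetase genes 12 were lower and 6 higher (median -0.052), against 9 and 9 after quantile normalization. All 18 are among the brightest 3488 genes, and the median ran from -0.083 without hairpin vector replicate 2 to -0.024 without tRNA vector replicate 2. GARS1, which charges the glycine tRNA that the vector encodes, was at 10737 and 11103 (0.048 ± 0.087), and AARS1 was the 1 member at an unadjusted p under 0.05. CARS1, AIMP1 and WARS1 stood at -0.13 ± 0.075, -0.13 ± 0.072 and -0.12 ± 0.12.

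Among the 33 lists other than cell type markers, p53 targets had the highest median. p53 is a transcription factor that answers DNA damage and other stress by raising genes of cell cycle arrest, repair, metabolism and death. Of 38 measured targets 30 had a higher mean with the hairpin vector and 8 a lower one, with a median log2 difference of 0.13. Of these 9 were higher and 1 lower at an unadjusted limma p under 0.05, beside 2.64% and 1.92% of all genes, and 0 passed after adjustment. With the replicate block 13 were higher and 1 lower at the unadjusted threshold, beside 4.96% and 4.41% of all genes. The mean log2 signal of the list was 10.59, 10.47, 10.55 and 10.53 on the tRNA arrays and 10.73, 10.64, 10.64 and 10.65 on the hairpin arrays, so the groups did not overlap. It was higher in each of the 4 same-number pairs, by 0.15, 0.17 and 0.10 at the 3 levels of the control RNAs. On the empty vector arrays it was 10.72, 10.57, 10.58 and 10.64. Array 1 lies in the range of the hairpin arrays, arrays 2 and 3 lie in that of the tRNA arrays, and array 4 lies just under the former. The median ran from 0.086, without hairpin vector replicate 1, to 0.160, and was 0.094 without tRNA vector replicate 2. This list already stood out in earlier results with the tRNA vector from the same tRNA arrays, so its difference here is no independent support.

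The members of the list named next, other than TP53I3 and TRIAP1, were chosen after their values were seen. TP53I3, a quinone oxidoreductase, gave 506, 486, 612 and 611 on the tRNA arrays and 813, 823, 750 and 682 on the hairpin arrays (0.47 ± 0.12). SESN2, a stress protein that restrains mTORC1, gave 2026, 2126, 2314 and 2542 against 2785, 2830, 3194 and 3150 (0.41 ± 0.11). In both genes every hairpin array lay above every tRNA array. ZMAT3, an RNA-binding protein, was at means of 1113 and 1428, and AEN, an exonuclease of apoptosis, at 2710 and 3208.

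CCNG2, an unusual cyclin linked to arrest, was at 1165 and 1415, and XPC, which finds lesions for excision repair, at 1970 and 2288. MDM2, the ubiquitin ligase that degrades p53, gave 4425, 3893, 3772 and 3685 against 4925, 4435, 4821 and 4372, where 1 tRNA array lay among the hairpin arrays. PHLDA3, an inhibitor of AKT, was at 387 and 549 with overlap (0.51 ± 0.19), and DDB2, also of excision repair, at 3659 and 4123. CDKN1A, the inhibitor of cyclin-dependent kinases that p53 raises, was at 1112 and 1203 (0.10 ± 0.12), GADD45A at 9344 and 10136 (0.12 ± 0.081), and BAX, which permeabilises mitochondria, at 355 and 378 (0.025 ± 0.28). TRIAP1 was the exception in direction, at 6443, 6344, 6211 and 5771 against 5598, 5030, 5056 and 4877.

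**Figure D4:**
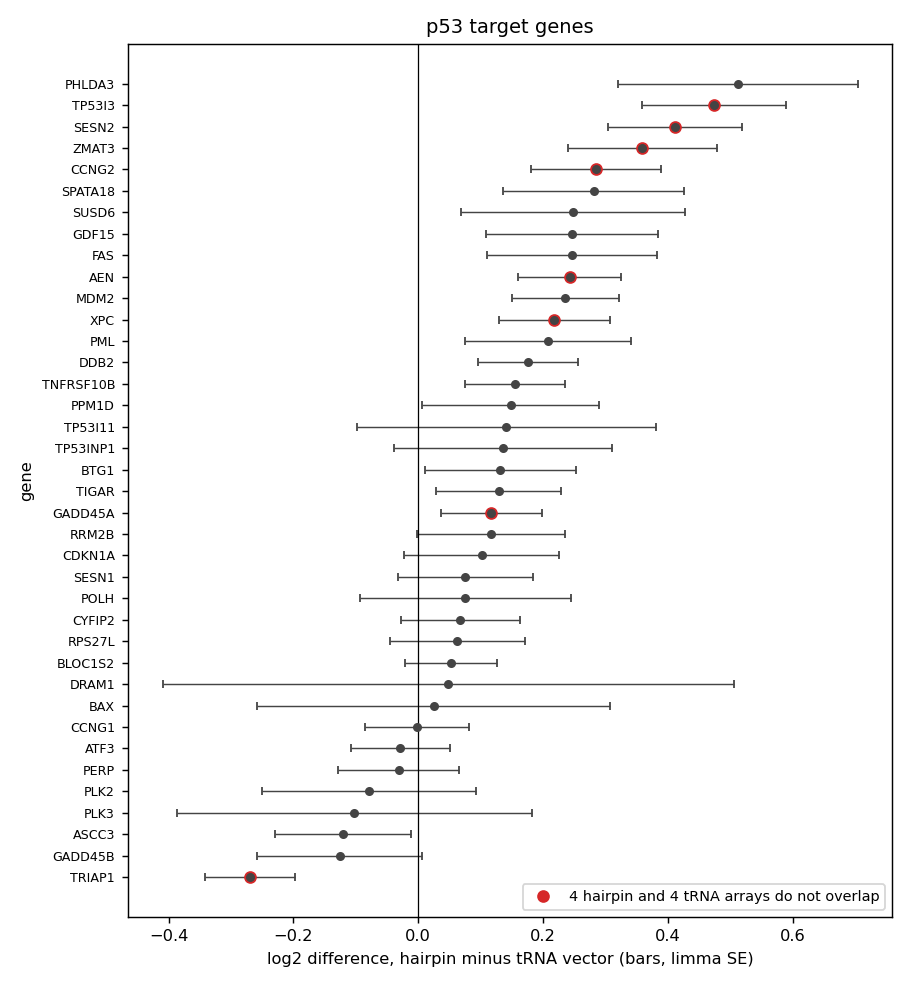
Log2 difference, hairpin minus tRNA vector (horizontal axis, bars are limma SEs), of each of the 38 measured p53 target genes (vertical axis), ordered by size; rings mark genes in which the 4 hairpin and 4 tRNA arrays did not overlap. Of the 38 genes 30 stand to the right of 0, 7 of them ringed, and TRIAP1 is the ringed gene to the left. Over all genes 1.66% were higher and 1.58% lower with no overlap.

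Transcripts of the translation and energy machinery were mostly lower with the hairpin vector, by small amounts that shrank with another normalization. The cytosolic ribosomal proteins were lower in 51 of 54 genes (median -0.13), the translation factors in 37 of 43 (-0.077), the subunits of the respiratory chain and ATP synthase in 52 of 69 (-0.058), and the proteasome subunits in 31 of 37 (-0.068), beside 49.4% of all genes. These lists hold bright transcripts: 51, 38, 66 and 36 of their members, in that order, lie among the brightest 3488 genes, of which 60.4% were lower and the median was -0.025. After quantile normalization, where 50.5% of those 3488 genes were lower, the counts were 28 of 54, 27 of 43, 40 of 69 and 25 of 37, and the medians -0.0040, -0.038, -0.0094 and -0.039. The median of cytosolic ribosomal proteins turned on single arrays: it was -0.044 without tRNA vector replicate 2 and -0.052 without hairpin vector replicate 1, but -0.205 without tRNA vector replicate 1 and -0.215 without hairpin vector replicate 2. How far brightness accounts for the lists was not tested beyond these values. EIF3L, EIF3I and EIF3B, subunits of the initiation factor that readies the small ribosomal subunit, were lower with no overlap (-0.23 ± 0.071, -0.19 ± 0.062 and -0.16 ± 0.067). Over all genes 1.58% were lower with no overlap. The other measured EIF3 subunits had overlapping groups. They ran from -0.10 ± 0.080 for EIF3G to -6.2e-05 ± 0.082 for EIF3E, apart from the dim EIF3C at -0.22 ± 0.54.

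RPL36, of the large ribosomal subunit, was at 28073 ± 888 and 24375 ± 2058 with no overlap. With the replicate block 15 cytosolic ribosomal protein genes had an unadjusted p under 0.05, all lower, against 2 with no block. Of the respiratory genes 13 were lower and 1 higher with the block, against 5 and 0 without it. Over all genes the shares lower and higher were 4.41% and 4.96% with the replicate block and 1.92% and 2.64% with no block. NDUFB10, of respiratory complex I, was at 15756 ± 2965 and 12264 ± 871, and PSMA1, of the proteasome core, at 11557 ± 1010 and 9928 ± 655. The 1 other tested probe set of NDUFB10 did not share its direction, whereas the 2 others of PSMA1 did. On the arrays, the mean log2 signal of the translation factors was 12.59 to 12.61 on the tRNA arrays and 12.51 to 12.53 on the hairpin arrays, with no overlap, whereas that of the ribosomal proteins ranged from 14.42 to 14.87 and from 14.28 to 14.72. In bulk RNA, fewer cells of a kind and less RNA per cell cannot be told apart for any of these lists.

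**Figure D5:**
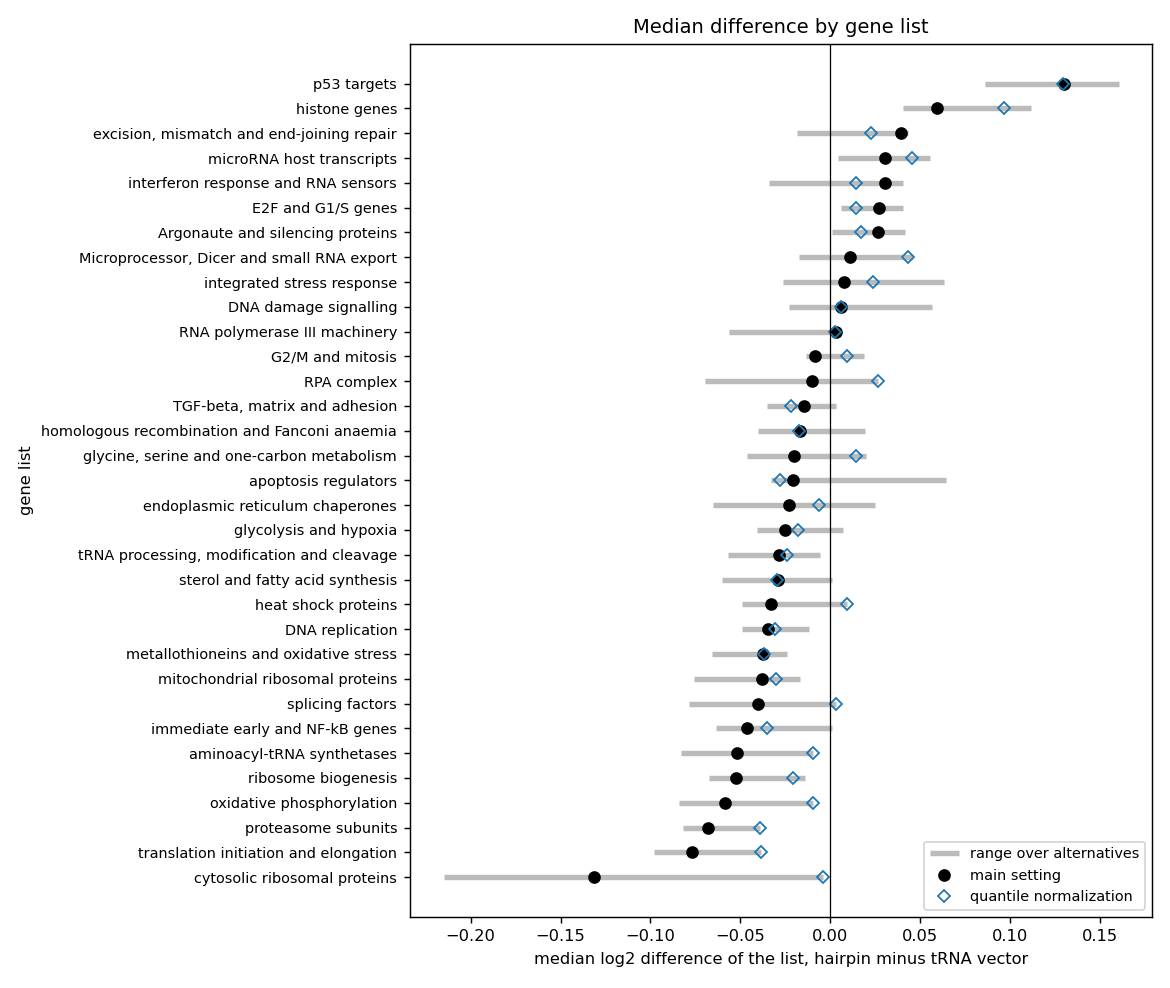
Median log2 difference, hairpin minus tRNA vector (horizontal axis), of each of 33 gene lists (vertical axis): filled circles are the main setting, open diamonds quantile normalization, and grey bars the range over all alternatives tried. The p53 targets stand highest at 0.13 with a bar wholly above 0, and the cytosolic ribosomal proteins lowest at -0.13 with a bar that reaches -0.0040.

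In the endoplasmic reticulum, where MANF acts, 21 of 34 chaperone and folding genes were lower and 13 higher (median -0.023). PDIA3, a disulfide isomerase, and CRELD2, a secreted protein induced with MANF by misfolded proteins, were lower at an unadjusted p under 0.05 (-0.21 ± 0.083 and -0.19 ± 0.081), and DNAJC10, a disulfide reductase, was higher (0.21 ± 0.094). Among the 4 other tested probe sets of DNAJC10, 2 shared its direction. HSPA5, the main chaperone there, was at 10138 and 9784 (-0.051 ± 0.090), XBP1, a transcription factor of that response, at 4043 and 4623 (0.19 ± 0.12), and CALR at 2693 and 3324 (0.26 ± 0.17). The heat shock list was lower in 26 of 39 genes (median -0.033, or 0.0095 after quantile normalization), with HSPE1, a mitochondrial cochaperone, at 9645 ± 466 and 8123 ± 1012. Of the 30 genes of the integrated stress response 16 were higher. At an unadjusted limma p under 0.05, 2 were higher (VEGFA and SESN2), beside 2.64% of all genes. SESN2 is counted among the p53 targets too, and 1 of the 3 other tested probe sets of VEGFA shared its direction.

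Genes of DNA replication were lower in 34 of 54 (median -0.035), among them GMNN, which blocks a repeat of replication licensing (13342 ± 2100 and 10732 ± 949), while WDHD1, a replisome factor, was higher (866 ± 92.4 and 1013 ± 25.3). Of 33 DNA damage signalling genes 17 were higher, with ATM, the kinase that answers double-strand breaks, at 633 ± 95.7 and 847 ± 82.2 and no overlap (0.43 ± 0.14). Among the 4 other tested probe sets of ATM, 2 shared its direction. Of 41 genes of excision, mismatch and end-joining repair 22 were higher, among them POLL, a polymerase that fills gaps in end joining (260.0 ± 59.1 and 417 ± 79.1), while APEX1, the nuclease of abasic sites, was lower (7233 ± 469 and 6404 ± 120). Of 30 genes of homologous recombination and the Fanconi anaemia pathway 13 were higher and 0 reached an unadjusted p under 0.05. Of 33 E2F and G1/S genes 19 were higher, with E2F7, a repressor of that programme, at 2579 ± 121 and 2976 ± 181. The 1 other tested probe set of E2F7 did not share its direction. The G2/M list was split 21 higher and 23 lower, with KIF2C, a motor that takes microtubules apart, higher (0.20 ± 0.089) and UBE2C, which helps end mitosis, lower (-0.21 ± 0.073).

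Genes of the answer to foreign RNA and of inflammation were split or dim. Of 32 interferon response and RNA sensor genes 17 were higher, with IRF1, a transcription factor of that response, at 214 ± 32.5 and 301 ± 31.4 and no overlap, and PARP14 near the filter at 77.8 ± 16.4 and 33.7 ± 34.4. Of 43 immediate early and NF-kB genes 26 were lower, with MYC at the smallest p. Higher means in the remaining lists, beside 50.6% of all genes, were found in 17 of 26 histone genes, 10 of 23 glycine, serine and one-carbon genes, 12 of 30 sterol and fatty acid genes, 16 of 39 glycolysis and hypoxia genes, 18 of 46 ribosome biogenesis genes, 25 of 75 mitochondrial ribosomal proteins, 17 of 52 splicing factors (27 of 52 after quantile normalization, with 49 of the 52 among the brightest 3488 genes), 18 of 37 apoptosis regulators, 13 of 41 metallothionein and oxidative stress genes and 28 of 62 genes of TGF-beta signalling, matrix and adhesion. Of the mitochondrial ribosomal proteins 70, and of the ribosome biogenesis genes 33, lie among the brightest 3488 genes. Of those 3488 genes 39.6% were higher. After quantile normalization 30 of 75 and 18 of 46 were higher. Medians of these remaining lists lay between -0.052, for ribosome biogenesis, and 0.059, for the histone genes. Among the higher genes, the smallest p in 3 of these lists belonged to CASP6, an executioner caspase, at 384 ± 89.7 and 516 ± 58.5, TKT, of the pentose phosphate pathway, at 7340 ± 1971 and 9916 ± 1239, and BYSL, of small ribosomal subunit assembly, at 2281 ± 133 and 2714 ± 172. Among the lower genes of the oxidative stress and ribosome biogenesis lists, PRDX3, a mitochondrial peroxidase, had a smaller p than TKT and was at 9898 ± 551 and 8675 ± 339. The 1 other tested probe set of PRDX3 did not share its direction. FBL, the methyltransferase of box C/D small nucleolar RNPs, was at 17894 ± 761 and 16139.5 ± 408. PRDX6, NQO1 and NOB1 were also lower at an unadjusted limma p under 0.05, and NOP58, PES1 and SLC30A1, of the same lists, were also higher at that threshold.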

How the data were processed

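The authors deposited MAS5 signal intensities on a linear scale for 54675 probe sets on 12 arrays; MAS5 is named without a version per the submitters' processing notes, and each deposited column had a 2% trimmed mean of 500.1. Gene symbols came from the array's annotation: 41097 probe sets had 1 symbol, 1801 several and 11777 none. From the deposited intensities log2 values were taken with no offset, 62 control and 21845 dim probe sets (under percentile 40 of mean log2 signal; 43.3 on the linear scale) were left out, and a gene was represented by its brightest tested probe set with 1 symbol. The means of the 3 groups were fitted with limma 3.58.1, run in R 4.3.3, over the 12 arrays (eBayes with an intensity trend), two-sided, with Benjamini-Hochberg adjustment over 32768 probe sets at 0.05; the fit was tested on simulated data. Unadjusted p-values are from the same fit, and ± after a log2 difference is its SE. Single values also had an exact permutation test over the 8 arrays, two-sided.

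Replicate numbers were taken as pairs because the deviations of same-numbered arrays from their group means correlated at 0.113, 0.126, 0.150 and 0.356, each over 0.1. Other numbers gave -0.205 to 0.103, so the highest of them was over 0.1 too. Arrays 3 and 4 were hardly told apart as pairs, at 0.126 and 0.113 for the same number and 0.103 and 0.093 across numbers. The pairing comes from the data and the shared numbers, not from a stated shared culture. The control RNA block (24 probe sets, 3 levels) was known from earlier results. Named were the 12 genes of highest and lowest moderated t, the RPA genes, the DGCR8 probe sets, the 2 genes of smallest p in each list (1 per direction), genes known from earlier comparisons, and calls of the blocked fits. The members, the 39 lists and the rules were chosen with earlier results of these data known. Precision is limited by the 4 arrays per group and, for dim probe sets, by their wider spread. Mature microRNA sequences are from RefSeq.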

Additional observations from a re-analysis of the deposited data

Results flagged for a closer look

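In 10 of 162 groups of 4 arrays looked at for the named transcripts, and in 5 of 66 for the list means, 1 array stood apart from the other 3, where chance flags about 1 in 20 groups. With the hairpin vector, the CHPF2 signal on array 4 was 561 against 677 to 691 on the others, and IFNGR1 on array 1 was 4414 against 3638 to 3715. With the tRNA vector, SERTAD2 on array 1 was 1641 against 1302 to 1343 and IFNGR1 on array 1 was 3464 against 2713 to 2781. The dim DGCR8 probe set was low on tRNA vector array 2, at 15.9 against 79.0 to 105, and on hairpin vector array 1, at 23.6 against 137 to 192. With the empty vector SPINT2 was 1240 on array 4 against 1043 to 1057, RPA3 was 14210 on array 1 against 10840 to 11336, GHET1 was 65.9 on array 2 against 82.8 to 86.4, and PFAS was 2418 on array 1 against 1864 to 1911.

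Among mean log2 signals of the lists, p53 targets were high on hairpin vector array 1, at 10.73 against 10.64 to 10.65, and Argonaute and silencing genes on hairpin vector array 2, at 11.06 against 11.03. Apoptosis regulators were low on hairpin vector array 2, at 9.68 against 9.80 to 9.82. Sterol and fatty acid genes were low on tRNA vector array 2, at 10.69 against 10.82 to 10.84, and splicing factors on tRNA vector array 1, at 12.53 against 12.61.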

How the results depend on the processing

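The count of adjusted calls was 0 in the other fits, single arrays left out included, 6 with the replicate block, 8 with the control RNA block, and 1 without the arrays numbered 1. Probe sets at an unadjusted p under 0.05 numbered 1380 higher and 1216 lower with the replicate block, 1380 and 1221 with the control RNA block, and 1201 and 1084 with no filter. The blocks leave the log2 differences as they are and changed no call of a named gene beyond DGCR8, MANF, MAP2K4, CIRBP, IFNGR1 and 1 probe set without a gene, with PPP2R5C and SEC61A2 added by the control RNA block. The RPA genes turned sign: with quantile normalization RPA1, RPA2 and RPA3 were at 0.017, 0.027 and 0.041, and when single arrays were left out their brightest probe sets ran from -0.070 to 0.033, -0.038 to 0.019 and -0.085 to 0.0090, and the dim RPA1 probe set from -0.27 to 0.043. Quantile normalization moved the list medians of synthetases to -0.0095, heat shock to 0.0095, oxidative phosphorylation to -0.0094, translation factors to -0.038 and splicing to 0.0034. Translation factors were at -0.098 without the arrays numbered 1 and at -0.061 with the mean of all probe sets of a gene. Without single arrays, medians ran from 0.00072 to 0.042 for Argonaute and silencing genes, -0.0086 to 0.056 for DNA damage signalling, -0.033 to 0.019 for homologous recombination, -0.018 to 0.039 for excision and end-joining repair, -0.035 to 0.025 for chaperones of the endoplasmic reticulum, -0.041 to 0.0071 for glycolysis, -0.084 to -0.060 for translation factors, -0.079 to -0.014 for splicing and -0.033 to 0.064 for apoptosis. In 1859 of the other values the direction and side of the threshold, or the value within the spread of the arrays, was kept; the cause of the moves was not tested. Signals near the filter of 43.3, and a confidence interval half-width of 1.20 on the log2 scale for the dimmest 8192 probe sets, limit what 4 arrays per group can show.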
